A study of Mus musculus with 1 sample.

Results

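The C-type lectins, galectins and Siglecs of cultured ventral midbrain (VM) glia are described here from 1 control RNA-seq library. A gene was taken as a member by its symbol: Clec, Lgals or Cd209 names with their number or letter, Siglec names, and Cd22, Cd33, Mrc1 and Mrc2. The rule took 59 of the 23282 rows of the table, and it did not use the values. By family, 40 members were C-type lectins, 9 were galectins and 8 were Siglecs. The other 2 carry such a name without being lectins of these families. Lgals3bp encodes a secreted glycoprotein that galectins bind, and Clec16a encodes a protein of the endosomal and autophagy machinery.

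The cells were primary mixed glia from the VM of ICR (CD-1) outbred mouse pups, whose age the labels give as postnatal day 5, while the growth protocol gives a range of days that ends there. The library was labelled as the control, its value column reads mAst_Cont_DMSO, and no genetic change is stated. How many pups or cultures it came from is not given in the sources used here, and inhibitor-treated glia were not analysed here. The values were whole numbers on the read-count scale, with a sum of 27569507. The control was a single library. Values therefore carry no error between cultures and were not tested, and an order of neighbouring genes holds within this library alone.

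Lectins are proteins that read the sugars on cell surfaces, secreted proteins and microbes. C-type lectins are named for a domain that in many members binds sugar with calcium, and myeloid cells carry many of them as receptors for fungi, bacteria and dying cells. Galectins are soluble proteins that bind galactose-containing glycans inside and outside the cell, and galectin-3 is known as a marker of activated microglia. Siglecs are membrane receptors for sialic acid, the terminal sugar of many brain glycans, and most of them carry inhibitory motifs that restrain immune cells.

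Among the 59 members, 37 stood at 10 or above and are called detected. That is 62.7%, and the share over all rows was 67.2%. Values of 0 were found for 15 members (25.4%), against 21.8% of all rows. With the minimum lowered to 1 or 3, the members above it were 44 and 42, and the shares over all rows were 78.2% and 73.9%. The middle of the range was thinly filled, with 22 members (37.3%) at 100 or more against 51.6% of all rows. At the top the family was like the rest of the table: 14 members (23.7%) reached 1000, against 21.5% of all rows, and 20 (33.9%) lay above the median of detected genes, against 33.6%. The median over all members was 37, and that over all rows was 119. The 14 members at 1000 or more held 93.5% of the summed member values, and all members together held 0.302% of the table's sum.

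**Figure D1:**
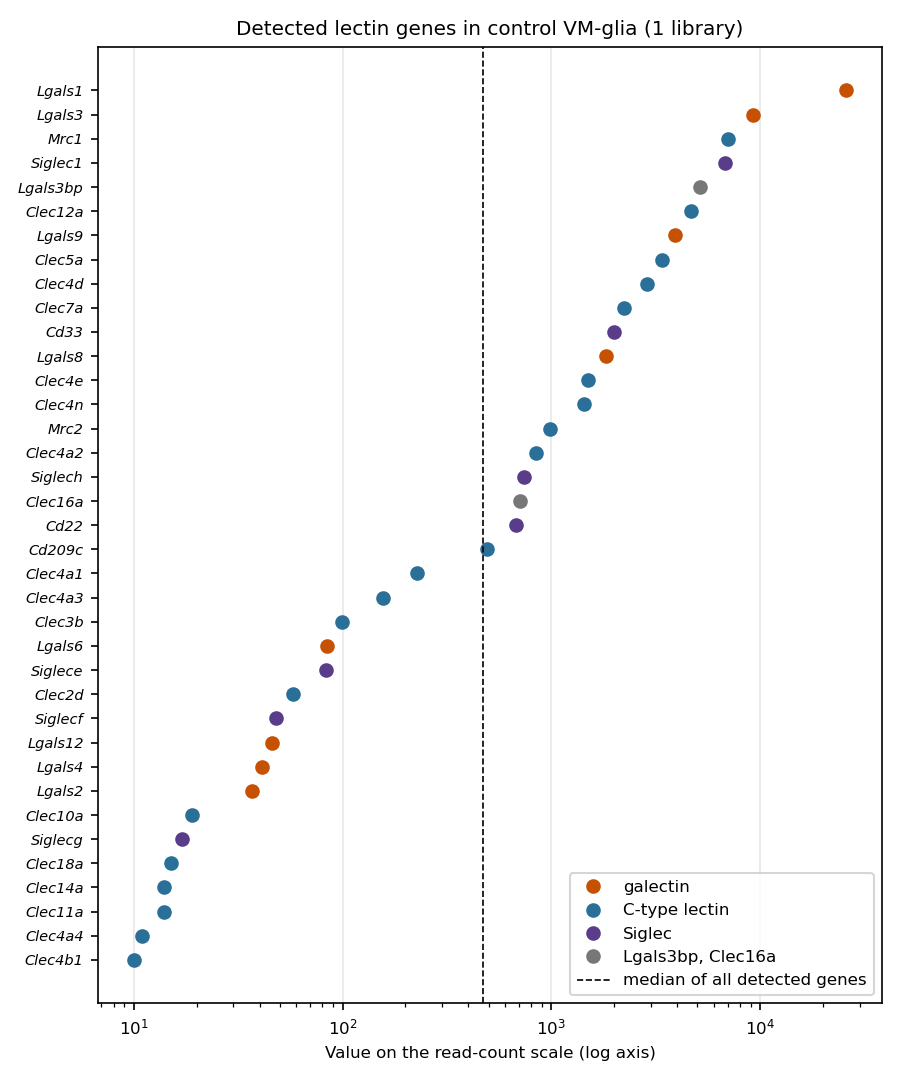
Values of the 37 detected members on the read-count scale (log axis), 1 point per gene from 1 library, coloured by family. Lgals1 stands highest at 25882 and Lgals3 follows at 9214. The dashed line marks 469, the median of all detected genes, and 20 members lie to its right.

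Levels of different genes were compared per kb of exon, because long transcripts yield more reads. On this scale Lgals1 was at 28662 per kb and Lgals3 at 4959 per kb. Together they held 70.8% of the summed per-kb level of the members, against 42.1% of the summed values as deposited. A group of 5 members followed between 1006 and 1824 per kb. In descending order they were Lgals9, Lgals3bp, Clec4d, Mrc1 and Clec4n. Siglec1, Clec5a, Clec7a and Clec12a then lay close together, between 847 and 949 per kb. The median of detected genes was 102 per kb, and 21 members were at 100 per kb or more. The share of all rows at that level was not taken, so this count is not compared with the table. Division by length moved Clec12a, Siglec1 and Cd33 down the order and Clec4d and Clec4n up.

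**Figure D2:**
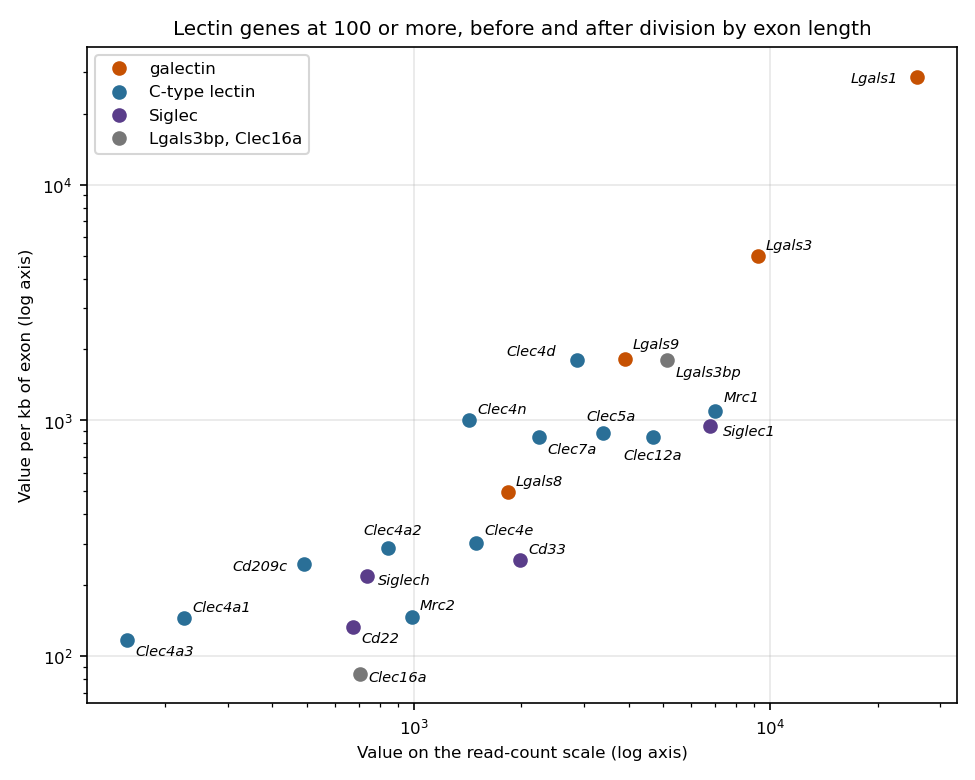
Value as deposited (x axis, log) against value per kb of exon (y axis, log) for the 22 members at 100 or more, coloured by family. Lgals1 and Lgals3 stand apart on both axes, and Clec7a, Clec5a and Clec12a share nearly the same level per kb although their values range from 2239 to 4684.

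Of the 9 galectins, 8 (88.9%) were detected, against 67.2% of all rows. At 100 or more there were 4 (44.4%), against 51.6% of all rows. The galectins held 75.9% of the members' per-kb level. Galectin-1, a small dimer-forming galectin, is encoded by Lgals1 on chromosome 15 (78926725 to 78930465 in GRCm38). Its value of 25882 was above 99.4% of detected genes. Galectin-3 has a single sugar-binding domain with a long flexible tail, and its gene Lgals3 (chromosome 14, 47367751 to 47386160) was at 9214, above 97.2% of detected genes. Per kb, Lgals1 was 5.78 times Lgals3. The tandem-repeat galectins, which join a pair of sugar-binding domains in a single chain, were lower: Lgals9 was at 3898 (1824 per kb) and Lgals8 at 1830 (496 per kb). Exons of Lgals8 overlap Heatr1 on the opposite strand.

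The remaining galectins are best known outside the brain and were low. Lgals12, known from fat tissue, was at 46. The gut galectins Lgals4 and Lgals2 were at 41 and 37, and Lgals6 was at 84. Exons of Lgals2 overlap Cdc42ep1 on the opposite strand. Lgals6 is a close copy of Lgals4 that only some mouse strains carry, and it has no entry in the annotation used, so reads of this pair may be exchanged and no level per kb is given. Lgals7, the galectin of stratified epithelia, was listed at 0. Lgals3bp was at 5138, or 1805 per kb, which is 0.364 times Lgals3 per kb. Clec16a was at 707, or 84.5 per kb.

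The galectins of this library were not tied to a single glial type by anything measured here, since the library is bulk RNA. Fewer cells of a type and less RNA per cell cannot be told apart in such data. Microglial markers were detected, among them Tmem119 at 984, Cx3cr1 at 10560 and Csf1r at 31413, and so were the 7 astrocyte markers, from 604 (S100b) to 17222 (Gfap). The 7 mesenchymal markers were also all detected, from 188 (Pdgfra) to 16915 (Col1a1). Markers of the oligodendrocyte lineage (6 of 6) and of neurons (5 of 5) were detected too, and the share detected over all rows was 67.2%. What each cell type added to Lgals1 and Lgals3 was not tested.

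Among the 40 C-type lectins, 20 (50%) were detected, against 67.2% of all rows. Values of 0 were listed for 13 of them (32.5%), against 21.8% of all rows. Mrc1 (chromosome 2, 14229392 to 14332057) encodes the macrophage mannose receptor CD206, which takes up glycoproteins with exposed mannose. It had the highest value as deposited, 7012, above 96.2% of detected genes. Per kb it was at 1101, below Clec4d at 1797. Its relative Mrc2 encodes Endo180, a collagen uptake receptor of fibroblasts and other mesenchymal cells. It was at 984, or 147 per kb, so the Mrc1 level was 7.46 times that of Mrc2 per kb. Mrc1 is also used as a marker of macrophages at the borders of the brain. The 7 markers listed for those cells were all detected, against 67.2% of all rows. Their values ran from 21 for both Cd163 and Lyve1 to 7582 for Ms4a7, with a median of 128. The part of such cells in the Mrc1 value was not tested.

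The Dectin-2 cluster on chromosome 6 holds 9 neighbouring genes within 368 kb, and no other gene of the table lies between them. The activating receptors at its distal end were the highest as deposited. Per kb, Clec4e at 301 was close to the inhibitory receptor gene Clec4a2 at 289, and with the longest transcript as the length Clec4a2 was the higher, at 341 against 311. Clec4d, which encodes the mycobacterial glycolipid receptor MCL, was at 2873. Clec4e, encoding Mincle, a receptor for glycolipids and for a protein released from dead cells, was at 1495. Clec4n, encoding Dectin-2, a receptor for fungal mannans, was at 1428. Per kb, Clec4d was at 1797, Clec4n at 1006 and Clec4e at 301. The position of Clec4e depends on its long exons of 4.97 kb in the annotation, since the ratio of Clec4d to Clec4e was 5.97 per kb and 1.92 as deposited.

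The proximal part of the cluster encodes receptors of the DCIR and DCAR type. Clec4a2, which encodes the inhibitory receptor DCIR1, was at 845, or 289 per kb. Clec4a1 was at 226 and Clec4a3 at 156. The last 3 genes were near or under the minimum, with Clec4a4 at 11, Clec4b1 at 10 and Clec4b2 at 1. Sequence is shared within this group: of all 50-base stretches in the annotated transcripts, 15.7% of those of Clec4a4 and 8.69% of those of Clec4b1 also occur in Clec4a2. The low values of Clec4a4 and Clec4b1 are therefore uncertain. No stretch of Clec4b2 was shared with another annotated gene.

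The next cluster on chromosome 6 holds 12 members within 810 kb, the Clec2 genes followed by the Dectin-1 genes. Of the 12, 3 were detected, and the share over all rows was 67.2%. Clec12a (129342691 to 129365303) encodes MICL, an inhibitory receptor that senses uric acid crystals and dying cells. It was at 4684, above 93.6% of detected genes. Clec7a (129461591 to 129472779) encodes Dectin-1, the receptor for fungal beta-glucan and a gene raised in disease-associated microglia. The annotation used lists the gene as a polymorphic pseudogene. It was at 2239, above 84.8% of detected genes. Clec2d, whose product is a ligand of natural killer receptors, was at 58.

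Between Clec12a and Clec7a lie 4 members with values of 7 or less. Clec12b and Clec9a, a receptor of dendritic cells for dead cells, were listed at 0. The platelet receptor Clec1b was at 6 and Clec1a, known from endothelium and myeloid cells, at 7. Clec1b and Clec9a overlap in exons on the same strand. Platelet markers were uneven, with Gp9 at 0, Ppbp at 4, Gp1bb at 209 and Itga2b at 215. The pair of detected Dectin-1 genes thus flanked a stretch of members at or near 0. Per kb, Clec7a and Clec12a were at 849 and 847, and Clec12a was the higher when the longest transcript was used as the length, at 1449 against 983 per kb. Clec5a, which lies apart on the same chromosome (40574894 to 40585821) and encodes the DAP12-linked receptor MDL-1, was at 3390, or 883 per kb.

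The Cd209 cluster on chromosome 8 had 1 detected gene. It encodes the mouse relatives of DC-SIGN, which bind mannose and fucose on microbes, and it is counted here with the neighbouring gene Clec4g. Of these 8 members, 1 (12.5%) was detected, against 67.2% of all rows. Clec4g and 6 Cd209 genes were listed at 0. Cd209c (3940222 to 3954746) was at 490, above 50.9% of detected genes as deposited. Per kb it was at 245, above 69.8% of detected genes. The 50-base stretches of its transcripts were shared with other annotated genes in 15.7% of cases. The largest part, 5.90%, was shared with the olfactory receptor pseudogene Olfr1372-ps1, and 36 partner genes were found in all. Whether reads of other origin add to this value was not tested. Cd209f and Cd209g share 29.8% of the Cd209f stretches with each other, and both were at 0.

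**Figure D3:**
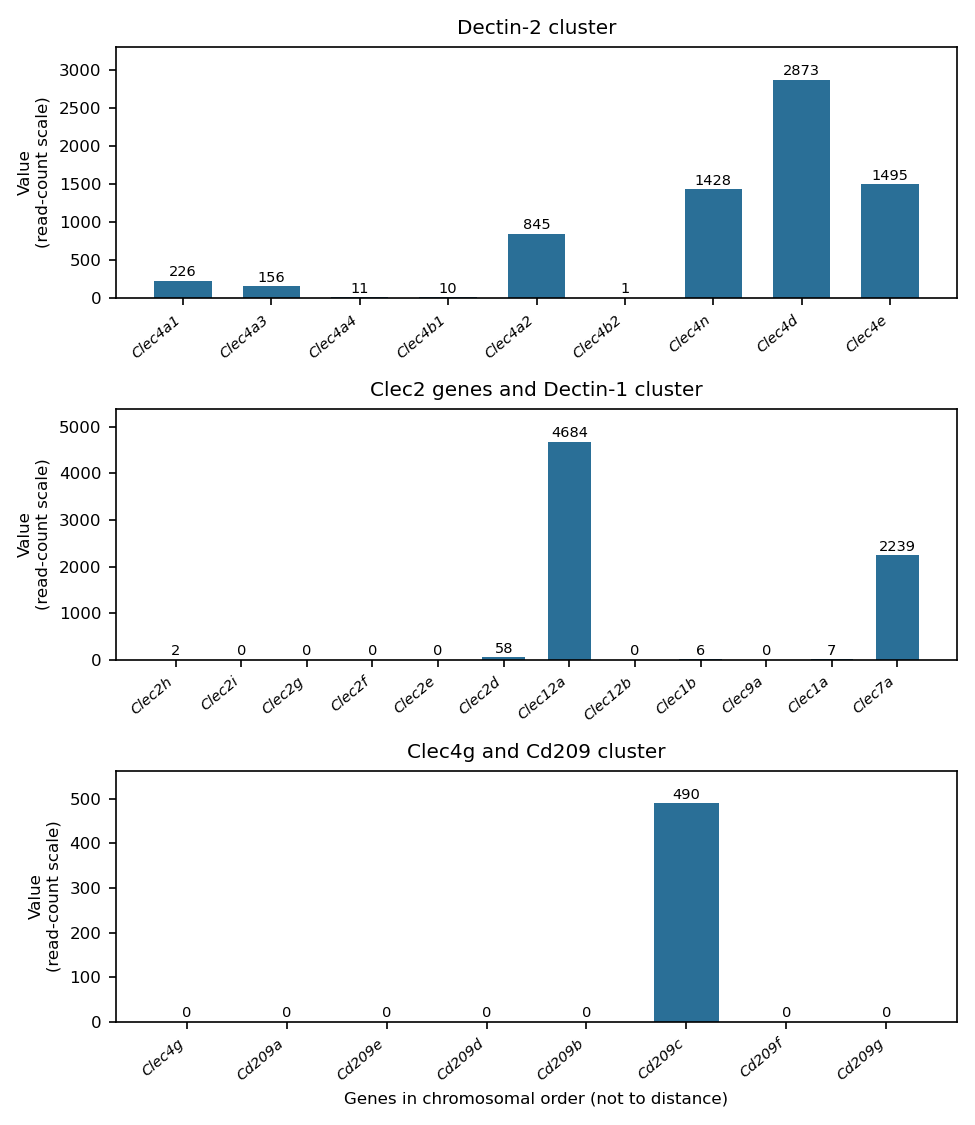
Values on the read-count scale (linear bars from 0) of members in 3 gene clusters, with genes in chromosomal order and distances not drawn to scale. The Dectin-2 cluster has 8 of 9 genes at 10 or more and the cluster of Clec2 and Dectin-1 genes has 3 of 12. The Cd209 cluster has Cd209c alone. Over all rows the share at 10 or more was 67.2%.

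Other C-type lectins were low. Clec3b, which encodes the plasminogen-binding protein tetranectin, was at 99. Clec10a, a macrophage receptor for galactose and N-acetylgalactosamine, was at 19, and 8.49% of its 50-base stretches occur in its neighbour Mgl2. Clec18a was at 15, and the secreted growth factor gene Clec11a and the endothelial gene Clec14a were both at 14. Of 6 endothelial markers, 4 (66.7%) were detected, against 67.2% of all rows. Those 4 ran from 33 (Pecam1) to 119 (Kdr), while Cldn5 was at 3 and Tek at 0. Members just under the minimum were Clec2l at 8, Clec1a at 7 and Clec1b at 6, followed by Clec3a and the Kupffer cell receptor Clec4f at 4 each and Clec2h at 2. Besides the genes named above, Clec2e, Clec2f, Clec2g and Clec2i were also listed at 0.

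The promoters of these genes were compared with those of other genes, using RefSeq windows on GRCm38.p6 from 250 bases before to 50 bases after each start. Windows were at hand for 46 of the 59 members. None was used for Lgals1, Siglec1, Clec4n, Mrc2, Clec3b, Lgals6, Lgals12, Clec10a, Clec4a4, Clec1a, Clec3a, Clec2f and Siglec15. The number of CpG dinucleotides was counted, because many promoters of broadly used genes are rich in CpG and many promoters of cell type-specific genes are not. The 24 windows of 21 detected C-type lectins and Siglecs held 0 to 7 CpG, with a median of 3.5. The median was 19 over the 14749 windows of all detected genes and 7 over all 32817 windows. Windows of members under the minimum had a median of 3. Detected galectins, with 5 windows, ran from 4 to 18 CpG, and the highest was Lgals3. Clec16a held 25.

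The 250 bases before the start are shown for 3 activating receptors, as examples of the CpG-poor windows, and for Clec16a as a CpG-rich contrast. Each is written in the direction of transcription with CpG in capitals, and none overlaps an annotated exon. The windows are chr6:123261857-123262106, plus strand for Clec4d, chr6:123289872-123290121, minus strand for Clec4e, chr6:129472780-129473029, minus strand for Clec7a, and chr16:10545089-10545338, plus strand for Clec16a.
Clec4d: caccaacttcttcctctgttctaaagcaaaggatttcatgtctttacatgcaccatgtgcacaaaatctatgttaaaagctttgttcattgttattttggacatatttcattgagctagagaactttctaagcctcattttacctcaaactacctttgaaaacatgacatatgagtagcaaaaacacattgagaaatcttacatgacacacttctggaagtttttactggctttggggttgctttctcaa
Clec4e: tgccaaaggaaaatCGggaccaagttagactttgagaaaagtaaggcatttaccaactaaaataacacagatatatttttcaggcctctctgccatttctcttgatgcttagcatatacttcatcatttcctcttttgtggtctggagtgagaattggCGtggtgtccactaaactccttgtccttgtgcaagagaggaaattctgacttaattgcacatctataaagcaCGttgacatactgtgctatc
Clec7a: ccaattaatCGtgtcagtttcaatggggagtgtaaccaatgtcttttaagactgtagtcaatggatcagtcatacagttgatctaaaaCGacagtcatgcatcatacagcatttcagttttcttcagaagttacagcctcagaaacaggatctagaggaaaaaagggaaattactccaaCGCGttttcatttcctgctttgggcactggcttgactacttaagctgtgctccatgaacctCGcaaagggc
Clec16a: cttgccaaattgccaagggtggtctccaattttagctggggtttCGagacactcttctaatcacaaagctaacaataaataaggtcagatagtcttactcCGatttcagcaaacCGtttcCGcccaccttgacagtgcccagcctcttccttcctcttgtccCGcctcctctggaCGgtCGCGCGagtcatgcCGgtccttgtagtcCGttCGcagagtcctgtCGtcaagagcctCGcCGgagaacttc

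In these 250 bases Clec4d has 0 CpG, Clec4e 3, Clec7a 5 and Clec16a 15. The letters GGGCGG, the core of an Sp1 site, were searched on both strands of the 300-base windows. They were found in 58.7% of windows of detected genes and in 35.6% of all windows. Among windows of detected C-type lectins and Siglecs they were found in 2 of the 24 (8.33%). AGGAAGT, a sequence of the ETS type to which the myeloid factor PU.1 binds, was found in 1 of these 24 (4.17%). Its share was 8.92% of windows of detected genes and 9.35% of all windows. TATAAA, searched only on the coding strand, the one printed above, was found in 2 of the 24 (8.33%). Its share was 4.84% of windows of detected genes and 8.32% of all windows. None of these sets of letters contains another, but GGGCGG holds a CpG and so is not independent of the CpG count. A match or its absence describes these windows and shows no binding.

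Of the 8 Siglecs, 7 (87.5%) were detected, against 67.2% of all rows. At 100 or more there were 4 (50%), against 51.6% of all rows. Siglec1 (chromosome 2, 131069220 to 131086765) encodes sialoadhesin or CD169, a long adhesion receptor of macrophages. It had the highest value, 6779, above 96.1% of detected genes, and was at 949 per kb. Cd33 (chromosome 7, 43524216 to 43544428), whose human counterpart is a risk gene of Alzheimer disease, was at 1985, or 255 per kb. Siglech, a DAP12-linked receptor of microglia and of plasmacytoid dendritic cells, was at 738, or 218 per kb. Cd22, best known as an inhibitory receptor of B cells, was at 674, or 134 per kb.

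Siglec1 was thus 3.72 times Cd33 per kb, and Cd33 was 1.91 times Cd22. The order of these 4 genes was the same as deposited and per kb. The other CD33-related Siglecs were lower, with Siglece at 83, Siglecf at 48 and Siglecg at 17. Siglec15, known from osteoclasts, was listed at 0. Of 5 osteoclast markers, 2 (40%) were detected, against 67.2% of all rows. These were Acp5 at 203 and Dcstamp at 35, and Calcr was at 0.

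For Cd22, the B cell marker Cd79b was listed at 0, Cd79a was at 9 and Ms4a1 at 16. Per kb, Cd79a was at 6.18 and Ms4a1 at 2.59, and Cd22 was at 134. Some of the Cd22 stretches, 7.84%, are shared with other annotated genes, mainly Gm29439 on the opposite strand (7.01%). For Siglech, dendritic cell markers were listed at 0 (Cd209a and Ccr7), 4 (Flt3), 57 (Zbtb46), 69 (Xcr1) and 772 (Itgax), the last a gene that microglia also express. Which cells gave the Cd22 and Siglech values was not tested. Markers of natural killer and T cells were all under the minimum, from 0 to 4, and of the neutrophil markers Camp was at 0, S100a9 at 2 and S100a8 at 129.

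Receptors of these families signal through a small set of shared partners. Activating C-type lectins and Siglecs either pair with the adaptors Fc receptor gamma chain (Fcer1g) or DAP12 (Tyrobp), or carry a single-tyrosine motif called hemITAM, and then recruit the kinase Syk. Inhibitory receptors carry ITIM motifs that recruit the phosphatases SHP-1 (Ptpn6), SHP-2 (Ptpn11) and SHIP-1 (Inpp5d). Of 15 genes of the Syk and CARD9 route, all were detected, against 67.2% of all rows. Their median was 2405, against 469 over all detected genes. The highest values as deposited were Fcer1g at 11552, Vav1 at 8268 and Tyrobp at 8122, and the lowest was Hcst at 41. Syk was at 4652, Card9 at 868, Bcl10 at 885 and Malt1 at 558. The 4 phosphatases were at 12215 for Ptpn6, 9306 for Inpp5d, 3180 for Inppl1 and 2801 for Ptpn11.

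Per kb and as deposited, the adaptors exceeded the receptors listed as pairing with them. Fcer1g was at 13217 per kb, 4.26 times the sum of Clec4d, Clec4e and Clec4n, which was 3103. As deposited, Fcer1g was at 11552 and this sum was 5796. Tyrobp was at 12177 per kb, 11.1 times the sum of Clec5a, Siglech and Siglec15, which was 1101. As deposited, Tyrobp was at 8122 and this sum was 4128. Both adaptors also serve receptors that are no members here. The hemITAM receptor Clec7a was at 849 per kb and Syk at 497 per kb, with the other hemITAM genes Clec1b and Clec9a at 1.18 and 0. The order of Clec7a and Syk was reversed as deposited, with Syk at 4652 and Clec7a at 2239. The 7 members listed as ITIM-bearing were Clec12a, Clec4a2, Clec12b, Cd22, Siglece, Siglecf and Siglecg, and they summed to 1335 per kb. Cd33, at 255 per kb, was neither in this list nor among the receptors summed for Tyrobp. Clec12a gave 847 of the ITIM sum, and Ptpn6 at 4359 per kb was 3.26 times that sum. As deposited, Ptpn6 was at 12215 and the 7 ITIM members summed to 6351. The ratios for Fcer1g, Tyrobp and Ptpn6 thus depend on the exon length, and each was smaller as deposited.

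**Figure D4:**
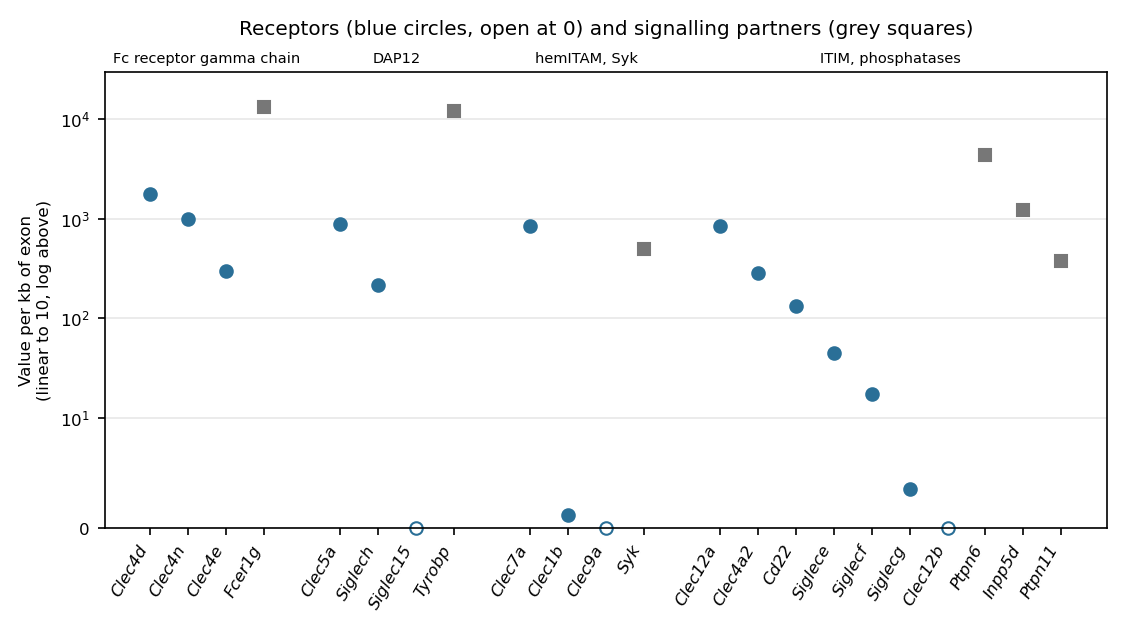
Value per kb of exon (linear to 10, log above) for receptors (blue circles, open where the value is 0) and their signalling partners (grey squares), grouped by route. Fcer1g and Tyrobp lie above each receptor of their groups, while Syk at 497 lies below Clec7a at 849. As deposited, Syk was the higher, at 4652 against 2239.

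The sugars that these lectins read are made by glycosyltransferases, whose genes were examined as the ligand side. Of 25 genes for sialic acid synthesis and transfer, 23 (92%) were detected, against 67.2% of all rows. The median of the 25 values as deposited was 485, and that of the 23 detected was 531, against 469 over all detected genes. The highest values as deposited were the sialic acid synthase Nans at 2277, St3gal1 at 1613 and St3gal5, the ganglioside GM3 synthase, at 1605. St6gal1, which makes the ligand preferred by Cd22, was at 1383. St6gal2 and St6galnac5 were listed at 0, and St8sia6 was lowest of those detected at 10. Among the sialidases, which remove the sugar, Neu1 of the lysosome was at 1429, Neu3 at 33, and Neu2 and Neu4 at 0.

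Of 20 genes for N-glycan branching and lactosamine, the ligands of galectins, 19 (95%) were detected, against 67.2% of all rows. The median of the 20 values as deposited was 610, and that of the 19 detected was 649. Man2a2 was at 3345, Man2a1 at 2480 and Mgat4b at 2436. Mgat5, whose branch adds binding sites for galectin-3, was at 2125, and Mgat5b was lowest at 2. Protein partners of the lectins, among them the member Lgals3bp, were all detected, 16 of 16, against 67.2% of all rows. Their median was 5235.5, against 469 over all detected genes. They included Vim at 218802, Itgb1 at 17232, Anxa1 at 11811, the galectin-9 partner Havcr2 at 5746 and the Clec1b ligand Pdpn at 2489. Pdpn was thus detected where its receptor gene Clec1b was at 6, while Cd4 was lowest at 40.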

How the data were processed

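Total RNA of mixed VM glia was sequenced from a SMARTer mRNA library. The authors trimmed bases of quality under 20, mapped reads to GRCm38/mm10 and counted exon reads of NCBI RefSeq Release 105 genes with HTSeq-count. Their methods name STAR, and the submitters' processing notes name TopHat and edgeR. Versions, strand setting and treatment of multi-mapped reads are not given in the sources used here. The deposited whole numbers were given the unit score, since any normalisation before deposit is not settled. The sequenced depth is unknown, so no interval or detection floor is given.

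Genes at 10 or above counted as detected. Exon lengths (union of exons), positions and overlaps came from GENCODE M21 (GRCm38), to which 22900 rows (98.4%) and 58 of 59 members were matched by symbol or by older RefSeq symbol. This is not the annotation the authors counted on. Shared sequence was the share of 50-base stretches of a member's transcripts found in another annotated gene, on either strand. 1 sample allows no test. By rule, all detected members were named, and of other lists the highest, the lowest and members at 0. Some further genes were named after their values were seen. Members and lists were chosen with earlier results of these data known, and the promoter and shared-sequence comparisons were added after the values were seen. Protein sequences were not analysed here, and some marker genes are not reported here. The motif search was tested on simulated data. Alternatives were minima of 1, 3 and 100, other sums, other lengths and members without exon overlap. Python 3.11.15, numpy 2.4.6, pandas 2.3.3 and matplotlib 3.10.9 were used.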

Additional observations from a re-analysis of the deposited data

How the results depend on the processing

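With no replicate and an unknown depth, a shift of more than 1.5 times was taken as a change. At minima of 1 and 3 the members detected were 44 and 42 and the C-type lectins 27 and 25, while galectins stayed at 8 and Siglecs at 7. At a minimum of 100 the count was 22 (37.3%) for all members and 12 (30%) for C-type lectins. It was 4 (44.4%) for galectins and 4 (50%) for Siglecs, and the share of all rows was 51.6%. The lower counts follow from the stricter minimum. The galectin share of the members was 49.3% with values as deposited, against 75.9% per kb. The members' share of the sum was 0.309% without Rn45s, 0.349% without the 10 highest genes and 0.448% per kb. The median of members without exon overlaps was 41. Of 7 list medians, 5 stayed within 1.5 times when genes under the minimum were left out, and those of the sialidases and of the other C-type lectin domain genes became 731 and 271. Of 28 checks on ratios between pairs of members, 17 stayed within 1.5 times and on the same side of 1. The order reversed for Clec7a to Clec12a (0.679 with the longest transcript, 0.478 as deposited), for Clec5a to Clec7a (0.920 with the longest transcript) and for Clec12a to Clec4d (1.63 as deposited). These are effects of the length used. No paired analysis was possible because there was 1 library.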

Other observations

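Genes with a C-type lectin domain whose symbols lie outside the rule were also read. Of 37 such genes, 17 (45.9%) were detected, against 67.2% of all rows. The median was 7 over all 37 and 271 over the 17 detected. The scavenger receptor gene Colec12 was highest at 11982, or 1373 per kb, between Clec4d at 1797 and Mrc1 at 1101 per kb. Of the lecticans of the brain matrix, Ncan was at 3018, Vcan at 1386, Bcan at 1332 and Acan at 3. Cd93 was at 2815, Cd302 at 1615 and the pericyte and fibroblast gene Cd248 at 1360. The selectins Selp and Sele were at 2 and 0, and the natural killer receptor genes Klrb1f, Klrg1 and Klre1 were listed at 0.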
